A study of Caenorhabditis elegans with 2 samples.

Results

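The regions described here are the short spaces between neighbouring genes that point the same way, the arrangement of genes in an operon. They were all gaps of 1 to 500 bp between adjacent protein-coding genes on the same strand in the Ensembl models of the Caenorhabditis elegans genome (WBcel235, the assembly also called ce11). There were 3526 such gaps among 17073 gaps between adjacent protein-coding genes, and 10151 of the 17073 lay between genes on the same strand. They covered 769.8 kb with a median length of 184 bp. Linking the genes on either side of each gap gave 2613 runs that held 6139 of the 19973 protein-coding genes. Of the runs, 1976 had 2 genes, 451 had 3, 124 had 4 and 62 had 5 or more, and the longest had 9. Distance and strand alone defined these runs, so they are operon-like and were not matched to a list of known operons.

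Chromatin immunoprecipitation with sequencing (ChIP-seq) had been used to map KLF-2, a Krüppel-like zinc-finger transcription factor, in embryos. There was 1 group with 2 biological replicates, both of strain RW12310, in which klf-2 carries a TY1::EGFP::3xFLAG tag (allele st12310) inserted by CRISPR. The label places that allele on chromosome II, while the annotation has klf-2 on V, and the place of the insertion was not tested. Whole midstage embryos aged 1.5 hours had been collected by bleaching, and sonicated chromatin was recovered with an antibody against GFP. No untagged strain, other stage or other genotype was compared. A whole embryo mixes all cell types, so a signal cannot be given to one of them.

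In C. elegans many genes lie in operons, in which one promoter upstream of the first gene drives a single long transcript. That transcript is cut into separate mRNAs by 3′ end formation and by trans-splicing, in which a short leader RNA, often SL2 for the downstream genes, is joined to the start of each message. The space between genes of an operon is usually short and holds the processing signals, and some operons also have an internal promoter in a wider gap. Krüppel-like factors in vertebrates bind GC-rich or CACCC-type boxes in promoters.

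The sequences around 8 of the highest summits in these gaps, those with no small-RNA gene within 100 bp on the chromosomes printed, are shown because they are the places at which KLF-2 was found between genes of a run. Each is read on the strand of the genes in ce11, runs 5′ to 3′ and has the summit, the point the authors' caller gave as the peak's maximum, at base 75 or 76. Capitals mark CCACCC or CCGCCC and also GCTTGC, each on either strand. The last word was chosen after the sequences had been seen.
C14F11.7 to T13C5.6, chrX:6207797-6207946, minus strand: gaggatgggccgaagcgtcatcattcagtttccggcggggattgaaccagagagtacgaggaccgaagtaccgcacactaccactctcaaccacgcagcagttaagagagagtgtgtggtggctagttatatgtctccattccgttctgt
R148.4 to R148.3, chrIII:3175102-3175251, plus strand: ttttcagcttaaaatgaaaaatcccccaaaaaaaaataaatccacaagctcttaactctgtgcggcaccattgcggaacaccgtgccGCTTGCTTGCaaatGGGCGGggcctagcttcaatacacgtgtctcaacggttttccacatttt
rbg-3 to fbxl-2, chrIII:4757118-4757259, plus strand: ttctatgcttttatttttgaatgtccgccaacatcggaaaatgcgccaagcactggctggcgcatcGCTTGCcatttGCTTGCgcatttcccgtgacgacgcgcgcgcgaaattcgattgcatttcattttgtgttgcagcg
hlh-33 to ddp-1, chrIII:1859663-1859812, plus strand: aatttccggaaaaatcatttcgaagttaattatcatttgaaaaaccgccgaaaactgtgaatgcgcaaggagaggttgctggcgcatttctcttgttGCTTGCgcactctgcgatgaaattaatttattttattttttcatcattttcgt
ugt-24 to C49A9.10, chrIV:6206509-6206658, minus strand: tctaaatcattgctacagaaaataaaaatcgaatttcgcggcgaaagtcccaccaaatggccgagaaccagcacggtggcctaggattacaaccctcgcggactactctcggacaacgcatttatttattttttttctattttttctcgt
C05C10.5 to ufd-3, chrII:9940552-9940701, plus strand: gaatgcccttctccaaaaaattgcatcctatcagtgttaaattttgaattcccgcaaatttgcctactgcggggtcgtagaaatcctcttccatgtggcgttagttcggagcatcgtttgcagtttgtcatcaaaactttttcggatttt
B0416.7 to gly-13, chrX:9296747-9296896, minus strand: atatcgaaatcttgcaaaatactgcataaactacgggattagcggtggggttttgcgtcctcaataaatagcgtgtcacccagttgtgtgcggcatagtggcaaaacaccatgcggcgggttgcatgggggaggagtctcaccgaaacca
lsy-13 to gtsf-1, chrIV:16865618-16865767, plus strand: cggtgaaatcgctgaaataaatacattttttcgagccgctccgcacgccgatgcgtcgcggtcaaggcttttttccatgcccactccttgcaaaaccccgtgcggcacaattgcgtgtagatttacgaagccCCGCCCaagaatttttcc

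For contrast, 2 gaps inside operons known from the early literature are printed whole, because no summit of the conservative list or of the full ranked list lay in them. The gpd-2 to gpd-3 gap lies between genes for glyceraldehyde-3-phosphate dehydrogenases, and the fib-1 to rps-16 gap between the gene of the nucleolar protein fibrillarin and that of a ribosomal protein. Capitals mark a CAG that ends the gap, the letters that precede a splice acceptor.
gpd-2 to gpd-3, chrX:3113342-3113442, minus strand: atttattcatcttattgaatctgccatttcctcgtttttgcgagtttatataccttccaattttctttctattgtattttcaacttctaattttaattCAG
fib-1 to rps-16, chrV:15000542-15000650, minus strand: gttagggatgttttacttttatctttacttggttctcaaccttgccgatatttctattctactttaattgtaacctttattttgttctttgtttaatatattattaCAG
The 2 gaps were 26.7% and 26.6% G and C, while the windows of the 8 printed summits ranged from 36% at ddp-1 to 52.7% at T13C5.6.

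KLF-2 summits were rare in same-strand gaps. Of the 3526 gaps, 29 held a summit of the conservative list, the authors' list of 1032 peaks that passed the irreproducible discovery rate (IDR) test between replicates. That is 0.822% (95% exact binomial interval 0.55% to 1.18%), against 1.57% of the 5673 gaps of the same length in any orientation. Each of the 29 gaps held 1 summit, and no 2 were in the same run. All 29 were 183 bp or longer, with a median of 389 bp and a highest of 500 bp. None of the 1564 gaps of 1 to 150 bp held one.

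The genes downstream of the bound gaps included several of basic cell functions. They included eif-3.C, a subunit of translation initiation factor 3, exos-8, a subunit of the RNA exosome, and rpac-19, a subunit shared by RNA polymerases I and III. Others were rae-1, a factor at the nuclear pore, lem-2, a protein of the inner nuclear membrane, and mdf-1, the Mad1 protein of the spindle checkpoint. Membrane traffic was represented by sec-3 of the exocyst, vps-28 of the ESCRT-I complex and atg-18, a phosphoinositide-binding autophagy protein. The remaining named genes were ddp-1, a small protein of mitochondrial import, dlst-1, an enzyme of the tricarboxylic acid cycle, sluh-7 and cacn-1, both splicing factors, ufd-3 of the ubiquitin system, gly-13, a glycosyltransferase, gst-27, a glutathione S-transferase, and gtsf-1 of a small-RNA pathway, with btf-1, ent-6, fbxl-2 and smr-1. The other 8 had sequence names only.

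The highest signal value, the authors' measure of peak height, was in the 472 bp gap between C14F11.7 and T13C5.6 on the X chromosome. It was 385 in the conservative list, rank 16 of 1032, and 170.2 in the ranked list of replicate 1 and 207.5 in that of replicate 2. This gap also holds an annotated non-coding RNA, C14F11.14. The summit lay 185 bp before the start of T13C5.6, and both replicates put it above every other bound gap.

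The second, 188.3, lay in the 400 bp gap between sys-1, which encodes a beta-catenin of Wnt signalling, and eif-3.C. The summit was 229 bp before eif-3.C, the second gene of a run of 4, and the replicates gave 84.1 and 102.2. No summit lay in the 1000 bp upstream of sys-1, the first gene of that run.

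The gap between cyn-3, a cyclophilin gene, and Y75B12B.11 had a signal of 160.5, with 77.2 and 83.2 in the replicates. The gap between gst-28 and gst-27 had 155.5, with 66.7 and 94.2. Both of these summits were within 100 bp of an annotated snoRNA gene that lies in the gap, and the summit between ZK622.4 and ZK622.1, at 116, was as close to a tRNA gene. The part of the small-RNA genes in these values was not tested.

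Among the gaps with no other annotated gene, R148.4 to R148.3 on chromosome III had 156.5, with 77.1 in replicate 1 and 76.5 in replicate 2. The gap from eak-6 to rae-1 had 153.5, with 72.4 and 76.3. That from rbg-3 to fbxl-2 had 145.9, with 48.4 and 87.7, and there replicate 2 was the higher by a wide margin. The gap from hlh-33 to ddp-1 had 137.8, with 55.5 and 77.5. The gap from ugt-24 to C49A9.10 had 134.1, with 76.7 and 56.3, the reverse order of the replicates.

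The gap from C05C10.5 to ufd-3 had 132.5, with 56.6 and 72.9. The gap from B0416.7 to gly-13 had 123.2, where replicate 1 had no matching peak within 100 bp and replicate 2 had 49.5. The gap from lsy-13 to gtsf-1 had 114, with 68.4 and 48.4. The replicates thus ordered these gaps differently.

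The next 7 gaps had signals of 112.2 to 95.3. They were those before exos-8 (112.2, with 48.4 and 67), F10E9.11 (109.9, with 39.9 and 68.2) and sec-3 (109.1, with 52.9 and 55.5). Replicate 2 was the higher in all 3. The gap before W08E12.7 had 107.1, with 42 and 63.8, and the gap before lem-2 had 104.2, with 56.1 and 61.5. The gap before smr-1 had 97.5, with 38.2 and 60.3, and that before atg-18 had 95.3, with 54.5 and 41.1, the only one of the 7 in which replicate 1 was the higher. The remaining 9 lay between 79.7 and 93.7, and the smallest bound gap, the 183 bp before ent-6, was one of them with 82.2.

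Over the 29 gaps the signal ran from 79.7, between ubc-7 and rpac-19, to 385, with a median of 109.9. Upstream of first genes, with 1 summit taken for each of 129 runs, the median was 107 and the range 62 to 860.2. Summits shared by neighbouring runs enter that median once per run. A matching peak was found in the ranked list of replicate 1 for 27 gaps (36.7 to 170.2, median 54.5) and in that of replicate 2 for 28 (30.7 to 207.5, median 60.8). The signal of replicate 1 was the higher in 7 of them. Signal values were not normalized between lists, so the replicates' levels are set side by side only.

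The replicates' own thresholded lists, of 436 and 456 peaks, had a summit in 11 and 18 of the 29 gaps. For 9 gaps both lists had one and for 9 neither did, so these last rest on the pooled lists. The other thresholded list of the series, with 1027 peaks, had a summit in 27 of the 29 and in 37 gaps in all. The lists of the replicates had one in 12 and 23 gaps.

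**Figure D1:**
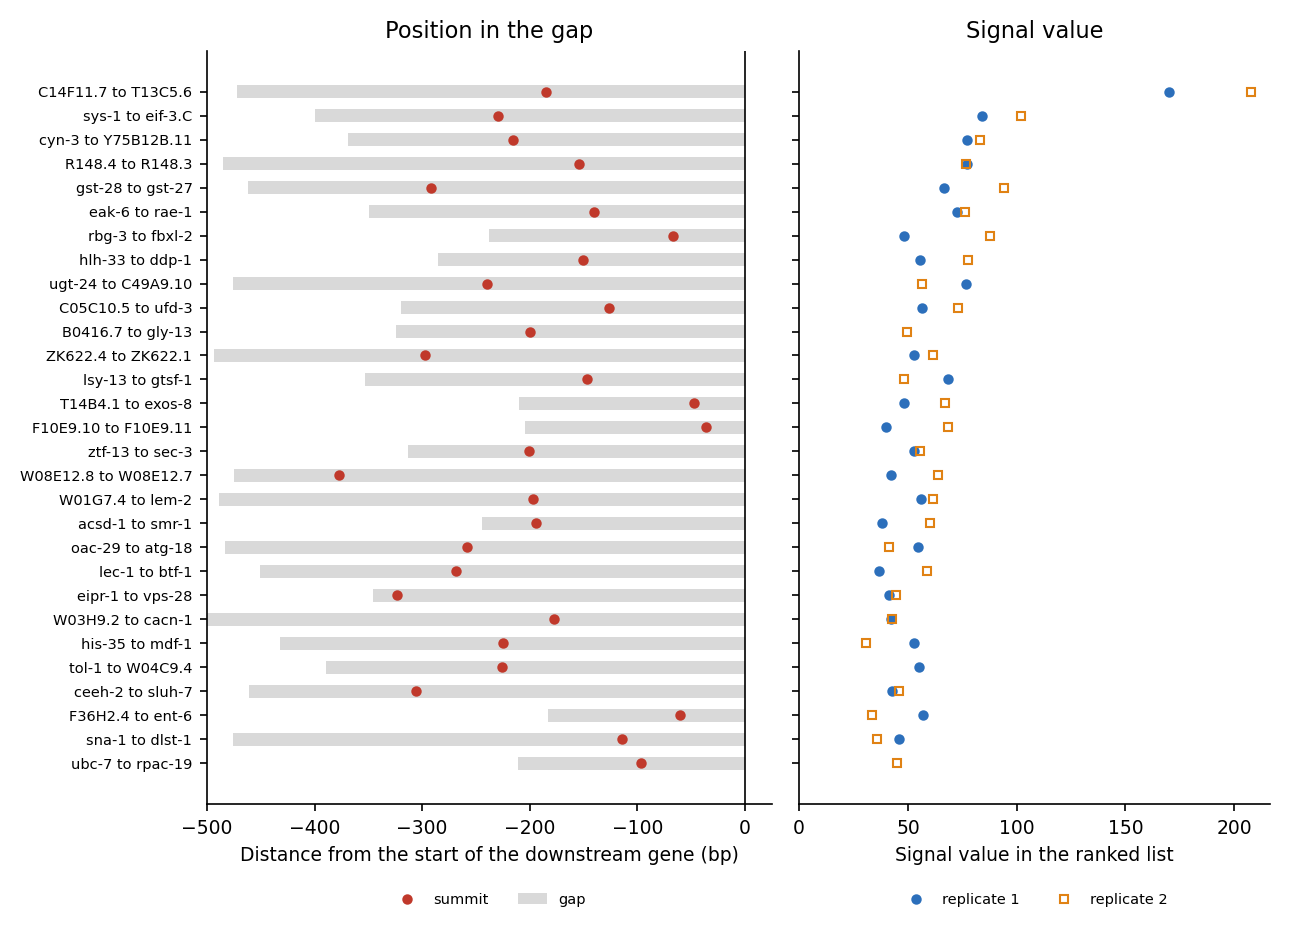
The 29 same-strand gaps with a KLF-2 summit, ordered by signal value in the conservative list. On the left, grey bars give the gap and red points the summit as distance in bp from the start of the downstream gene; on the right, the authors' signal value in the ranked list of each replicate is shown, with no point where no peak matched. The summits lie 36 to 377 bp before the downstream gene, and the gap before T13C5.6 is the highest in both replicates.

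The summits lay at no preferred end of the gap that these numbers could show. The distance to the start of the downstream gene was 36 bp at the least, before F10E9.11, 197 bp at the median and 377 bp at the most, before W08E12.7. In 22 of 29 gaps it was within 250 bp. In 13 of 29 (44.8%, interval 26.4% to 64.3%) the summit was nearer to the downstream start than to the upstream gene's end (two-sided exact binomial test, p = 0.711, adjusted p = 0.83 over 7 tests with the Benjamini-Hochberg method). The bound gap was the first of its run in 22 cases, the second in 5 and the third in 2, among 2613 first gaps and 913 later ones. Every chromosome had bound gaps, 5 of 600 on I, 7 of 658 on II, 6 of 576 on III, 3 of 556 on IV, 5 of 872 on V and 3 of 264 on X.

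Length set the bound gaps apart. The 1564 short gaps, of 1 to 150 bp, covered 145.1 kb and held 0 summits, and the 1962 longer ones covered 624.7 kb and held 29, or 46.4 per Mb. The short gaps made up 18.9% of the bases, while 0 of 29 summits (interval 0% to 11.9%) fell in them (two-sided exact binomial test, p = 0.00356, adjusted p = 0.00831). A count of 0 allows up to 0.192% of the short gaps or 20.7 summits per Mb, taking 3 counts as the limit over the group. The interval of the ratio of short to longer gaps in summits per base was 0 to 0.584. The call was lost with the peaks of replicate 1 alone, which had 0 and 12 summits (exact p = 0.14), and with a split at 100 bp, chosen after the data were seen (exact p = 0.166). It was also lost when a peak had only to overlap the gap by 1 bp, where 2 peaks reached a short gap and 30 a longer one (exact p = 0.0717). The other thresholded list of the series placed 1 summit in a short gap, of 143 bp, and 36 in longer ones (exact p = 0.00964). The median peak was 296 bp wide, wider than any short gap.

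Within the longer gaps the density was higher in each longer class, from 18.8 summits per Mb in gaps up to 200 bp (1 of 303 gaps) to 40.0 in gaps above 200 and up to 300 bp (6 of 600). It was 45.7 per Mb in gaps above 300 and up to 400 bp (9 of 560) and 58.0 in gaps above 400 bp (13 of 499). Just outside the limit, gaps above 500 and up to 1000 bp had 25.0 per Mb, with 37 summits in 2016 gaps. These steps rest on few summits and were not tested.

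Orientation was compared at the same lengths. Head-to-head gaps of 1 to 500 bp, where both neighbours start at the gap, held 52 summits in 907 gaps of 257.5 kb, or 202 per Mb. Same-strand gaps held 37.7 per Mb, so head-to-head gaps were 5.36-fold denser (interval 3.34 to 8.76, two-sided exact binomial test, p = 1.30e-13, adjusted p = 4.55e-13). Their range over the other settings was 2.74 to 10.7-fold. Tail-to-tail gaps, where neither protein-coding neighbour starts, held 8 summits in 1240 gaps of 255.9 kb, or 31.3 per Mb. The ratio of tail-to-tail to same-strand density was 0.83 (interval 0.328 to 1.86, exact p = 0.849, adjusted p = 0.849), so a difference was not detectable at these numbers, and with the peaks of replicate 1 alone the ratio was 1.75 (exact p = 0.286). Without peaks at small-RNA genes it was 1 summit against 26, a ratio of 0.116 (exact p = 0.0067), and without gaps that hold another annotated gene 1 against 24, a ratio of 0.128 (exact p = 0.0172).

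**Figure D2:**
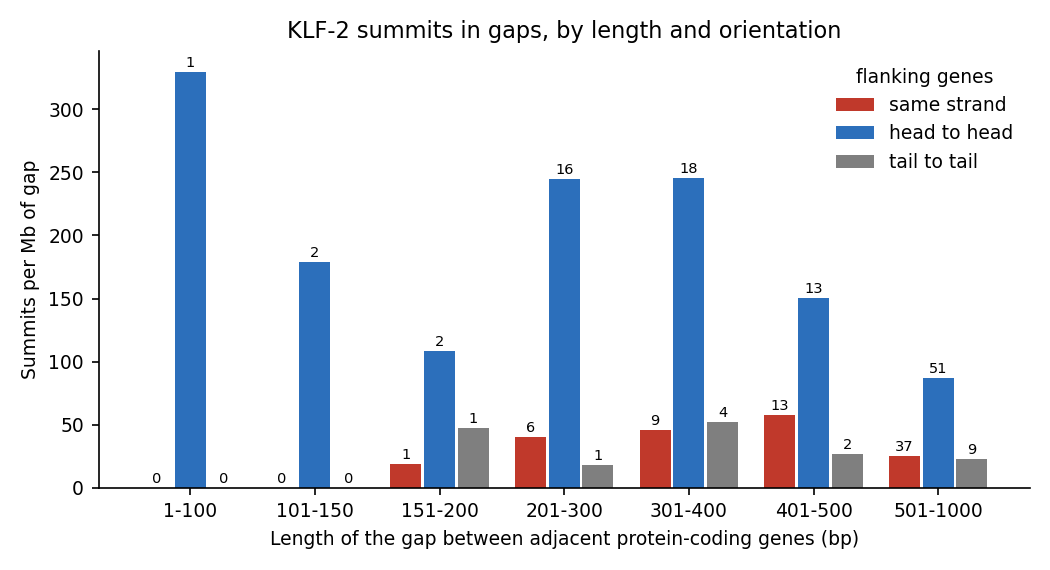
KLF-2 summits of the conservative list per Mb of gap (y axis) by gap length in bp (x axis) for genes on the same strand, head to head and tail to tail. Numbers above the bars are summits; same-strand gaps hold 0 up to 150 bp and reach 58.0 per Mb above 400 bp, before the limit of 500 bp, and head-to-head gaps are the highest in every length class.

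Upstream of the runs, 129 of the 2613 first genes had a summit within 1000 bp, or 4.94%, against 2.47% of all 19973 protein-coding genes. The share was 10.2% in the 801 runs with a head-to-head start within 1000 bp and 2.59% in the other 1812. All protein-coding genes were not split in this way. Because neighbouring runs can share a window, the 129 first genes had 118 distinct summits, and none of these summits lay in a same-strand gap of the set. With 1 summit taken for each of the 129 first genes, the median distance was 242 bp, and 66 of the 129 were within 250 bp. Some first genes had more than 1 summit. The highest summit was 530 bp before K12H4.5, with a signal of 860.2, or 379.3 in replicate 1 and 490.2 in replicate 2. That run of 4 also holds spcs-3, a signal peptidase subunit gene, and no bound gap.

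The next upstream summit, at 314.8, was 1 peak between the runs of atad-3, a mitochondrial ATPase gene, and nrde-2, a nuclear RNA interference gene. Replicates 1 and 2 had 171.4 and 136.2 there. The summit before sec-15, an exocyst gene, had 302.3 and was within 100 bp of a tRNA gene, and 6 of the 129 were that close to a tRNA or other small-RNA gene. The run of tasp-1 and dpy-28, a condensin subunit gene, had a summit of 255.7 only 64 bp before its first gene, with 124.3 and 124.5 in the replicates.

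Run by run, 126 runs had a summit upstream and none inside, 26 had one inside and none upstream, and 3 had both. The share of upstream among the runs with only one kind was 82.9% (interval 76.0% to 88.5%, exact McNemar test, two-sided, p = 6.02e-17, adjusted p = 4.21e-16). It stayed past the threshold in each of the 15 other settings (63.9% to 94.3%). The upstream windows covered 2530.1 kb and the gaps 769.8 kb, and runs that share an upstream summit are counted separately, so this share reflects the searched length as well as the density.

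Per base the difference was not detectable. The upstream windows had 46.6 summits per Mb and the gaps 37.7, a ratio of 1.24 (interval 0.819 to 1.93, two-sided exact binomial test, p = 0.33, adjusted p = 0.463). The direction depended on the setting. With an upstream window of 500 bp the ratio was 2.11 (exact p = 1.92e-04), and with gaps of 1 to 300 bp it was 2.78 (exact p = 0.00396). With the peaks of replicate 2 alone it was 0.748 (exact p = 0.242), and with only the gaps longer than 150 bp, a setting added after the data were seen, it was 0.613 (exact p = 0.0401), so there the gaps were the denser. That last setting linked the runs anew without short gaps, so its first genes and upstream windows differ from those above.

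When the gaps of each run were set against 1 window of their summed length just upstream of its first gene, the windows held 51 summits and the gaps 29, 63.75% upstream (interval 52.2% to 74.2%, two-sided exact binomial test, p = 0.0183, adjusted p = 0.0321). With the peaks of replicate 1 alone it was 63.6% (exact p = 0.163), with those of replicate 2 alone 50% (24 and 24), and with the other thresholded list 54.3% (exact p = 0.505). For the gaps longer than 150 bp alone it was 49.1%, with 28 and 29 summits. With gaps of 1 to 300 bp it was 82.9% (34 and 7, exact p = 2.53e-05), and with overlap in place of the summit 72.4% (84 and 32 peaks, exact p = 1.48e-06). In the setting with gaps longer than 150 bp, runs were linked anew by those gaps only. Its first genes can follow a short gap, and runs with only short gaps drop out. That setting therefore does not compare longer gaps with the upstream windows of the same runs.

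Positions relative to the start of each gene mostly recount the summits above for genes of runs, so they are no separate evidence. In the 250 bp before the start, counting every summit of each gene, there were 70 summits over the 2613 first genes, or 26.8 per 1000 genes. Genes after a longer gap had 22 in 1962, or 11.2 per 1000, and the 13834 protein-coding genes in no run had 142, or 10.3 per 1000. Genes after a short gap had 0 in 1564, and there part of the 250 bp lies in the gene before. Those genes had 25 summits more than 500 and up to 1000 bp upstream, 15.98 per 1000, and 14 of the 25 lay in the window upstream of their own run. In the first 250 bp of the gene all 4 classes were low, at 0.51 to 1.45 per 1000.

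**Figure D3:**
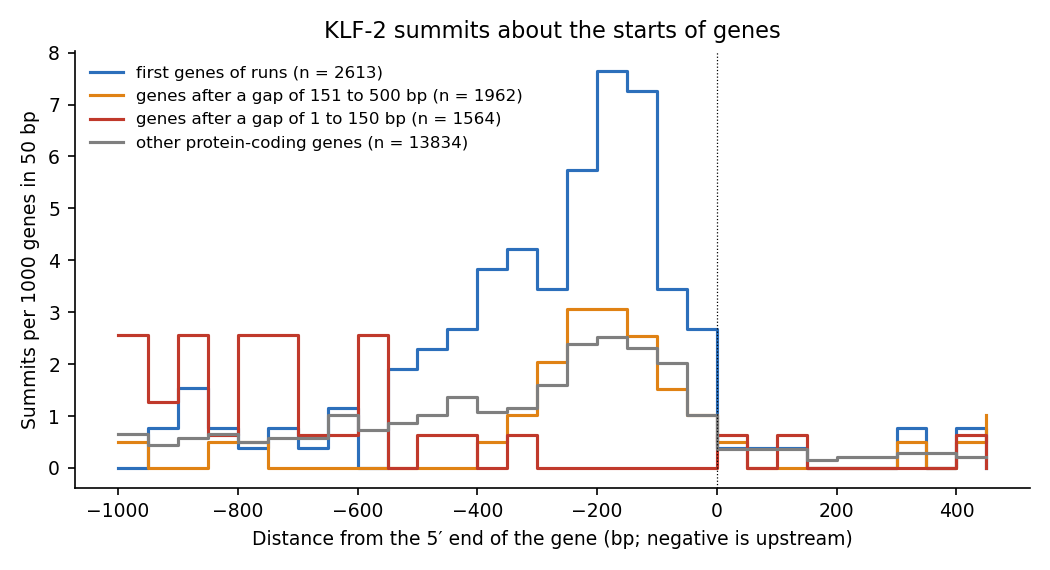
KLF-2 summits per 1000 genes in steps of 50 bp (y axis) by distance from the 5′ end of the gene in bp (x axis), for first genes of runs, genes after a gap longer than 150 bp, genes after a gap of 1 to 150 bp and all other protein-coding genes. First genes are the highest just before the start, genes after a longer gap lie near the other genes, and genes after a short gap have no summit in the 250 bp before the start.

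The share of runs bound upstream was 4.45% for 2 genes (interval 3.59% to 5.46%), 5.76% for 3, 8.06% for 4 and 8.06% for 5 or more (interval 2.67% to 17.8%). The intervals of neighbouring sizes overlap. Where all gaps of a run were short, the shape most like an operon, 66 of 939 runs were bound upstream (7.03%, interval 5.48% to 8.86%) and 0 inside. Where every gap was longer than 150 bp, 41 of 1346 were bound upstream (3.05%, interval 2.19% to 4.11%) and 15 inside. The 328 runs with both kinds of gap had 22 bound upstream (6.71%) and 14 inside (4.27%).

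A neighbour that starts on the opposite strand went with these shares. Of 801 runs with a head-to-head start within 1000 bp, 82 were bound upstream (10.2%, interval 8.22% to 12.6%), and of the other 1812 runs 47 were (2.59%, interval 1.91% to 3.43%). Their shares bound inside were 1.37% and 0.993%. Without runs that have such a neighbour, the per-base ratio of upstream windows to gaps was 0.822 (exact p = 0.47). A summit between head-to-head genes cannot be given to either of them.

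**Figure D4:**
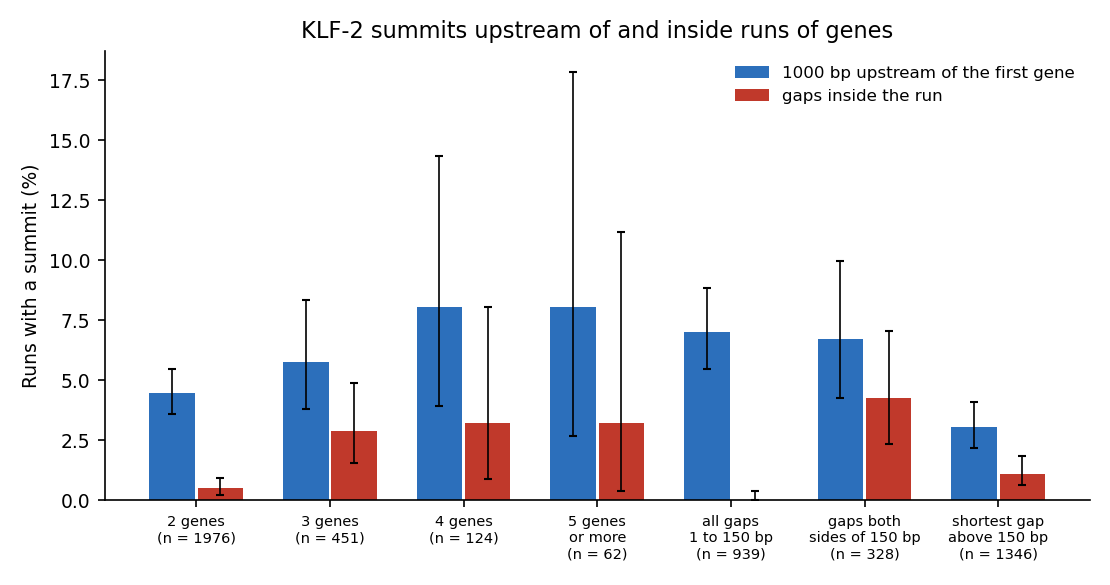
Share of runs in % (y axis) with a KLF-2 summit in the 1000 bp upstream of the first gene or in a gap inside the run, by number of genes and by gap length (x axis, with the number of runs). Bars start at 0 and error bars are 95% exact binomial intervals; runs with only gaps of 1 to 150 bp have 7.03% upstream and 0% inside.

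Both an upstream and an inside summit were found in 3 runs, all on chromosome II. The run of rpb-11, a subunit gene of RNA polymerase II, W01G7.4 and lem-2 had 108.2 upstream and 104.2 in the gap before lem-2. The run of W03H9.2, cacn-1 and algn-3 had 150.5 upstream and 89.5 before cacn-1. The run of ZK622.4 and ZK622.1 had 213.2 and 116, and both of those summits were at tRNA genes. In the other 26 runs with a bound gap the 1000 bp upstream of the first gene had no summit.

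Gene groups, taken by name pattern, were counted in both places, before a gene inside a run and upstream of a first gene. Cytosolic ribosomal proteins, 81 genes, had 28 first genes of a run and 9 after a gap, and 10 of the 28 had an upstream summit (35.7%). These were rpl-12, rpl-15, rpl-20, rpl-29, rpl-43, rps-12, rps-20, rps-23, rps-24 and rps-28, and no gap before a member was bound. All of these but rpl-29, rps-24 and rps-28 had a head-to-head start within 1000 bp. The summits before rpl-12 and rps-12 were also those before lin-54 and ska-3 on the other strand. Mitochondrial ribosomal proteins had 27 genes after a gap and 16 first genes, and 0 in either place was bound. Among translation factors, 1 of 6 after a gap was bound, eif-3.C, and 4 of 13 first genes, namely eif-1.A, eif-3.B, eif-3.E and eif-3.J. Of these 4, eif-1.A and eif-3.E had a head-to-head start within 1000 bp. Genes with the splicing names snr, prp, rsp, sftb, sap or uaf had 0 of 5 and 2 of 9, prp-19 and snr-2. Both prp-19 and snr-2 had a head-to-head start within 1000 bp. The summit 642 bp before prp-19 was also 33 bp before K10D2.5 on the other strand. The splicing genes sluh-7 and cacn-1, after bound gaps, and plrg-1, with an upstream summit of 151.2, fall outside that pattern.

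The other groups had at most 1 bound place each. A name pattern misses genes of the same function with other names, such as ndua-2 and nduc-2 of respiratory complex I, first genes with upstream summits of 139.3 and 62. Chemoreceptors had 0 of 173 genes after a gap bound and 1 of 153 first genes, C-type lectins 0 of 37 and 0 of 21, and collagens 0 of 22 and 0 of 16. Nuclear hormone receptors had 0 of 38 and 1 of 30, nhr-141. Histones had 0 of 1 and 1 of 6. Aminoacyl-tRNA synthetases had 0 of 10 and 0 of 7, genes named nduf, cox, cyc, atp or sdh, all of the respiratory chain or ATP synthase, 0 of 9 and 0 of 6, proteasome genes 0 of 8 and 0 of 7, and vacuolar ATPase genes 0 of 5 and 0 of 2. The shares over all genes are 0.822% of gaps and 4.94% of first genes, and no group was tested.

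Of 9 gene pairs of operons from the early literature, 3 border a gap of the set. The gaps gpd-2 to gpd-3 (101 bp), fib-1 to rps-16 (109 bp) and vha-1 to vha-2 (400 bp) held no summit of the conservative or ranked list. The first gene fib-1 had an upstream summit with a signal of 86.4. It lay 142 bp before fib-1 and 178 bp before mut-15, a head-to-head neighbour, and cannot be given to either. The pair vha-3 and vha-11 is 892 bp apart, and the other 5 pairs have no same-strand gap in these models. The 4 runs with 7 or more genes, the longest of them sgo-1 to rpap-3 with 9 genes, also had no summit upstream or inside.

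The full ranked list, 111583 peaks before any threshold, reached 807 of the 3526 gaps (22.9%). Its density was 1034 per Mb in short gaps, 1106 in longer gaps, 1166 in upstream windows, 1546 in head-to-head gaps, 1098 in tail-to-tail gaps and 1113 over the nuclear genome. Of these, head-to-head gaps were the farthest from the genome's density. The first 1000 ranks had 0 summits in short gaps, 54.4 per Mb in longer gaps, 40.3 upstream, 186 in head-to-head gaps and 9.97 in the genome. In the next 4000 ranks short gaps had 48.2 per Mb, longer gaps 62.4, upstream windows 59.3, head-to-head gaps 116 and the genome 39.9. Each conservative peak is also in the ranked list, so the top ranks repeat the counts above and are no separate evidence.

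The highest-ranked summit in a short gap was at rank 2245, in the 143 bp between spsb-2 and Y46E12BL.2, with a signal of 64.3. The next were in the 150 bp between C47E8.11 and gasr-8 (62.7), the 104 bp between pnc-1, a nicotinamidase gene, and Y38C1AA.12 (62.3) and the 78 bp between gly-9 and Y47D3A.21 (57.3). The −log10 global IDR of these 4 was 1.66, 0.89, 1.32 and 1.2, which does not reach an IDR of 0.01. All 4 signals lie below 79.7, the lowest of the 29 bound gaps. Upstream summits of the conservative list reach down to 62, so signal alone does not set 64.3, 62.7 and 62.3 apart from listed peaks.

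The bound windows had a base composition unlike that at the middle of the gaps of the set as a whole. Within 50 bp of the summit the 29 windows had a median of 49.5% G and C, from 22.8% at vps-28 to 58.4%. The 118 upstream summits had 48.5% and all 1032 peaks 49.5%, against 34.7% in the middle of longer gaps, 28.7% in the middle of short gaps and 35.4% over the genome. Windows at the middle of gaps of 100 bp or less extend into the genes. The part of base composition in the counts was not tested.

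A CCACCC or CCGCCC box, on either strand, was within 50 bp of the summit in 5 of 29 bound gaps (17.2%), before R148.3, atg-18, cacn-1, W04C9.4 and ent-6. The box in the window printed before gtsf-1 lies farther than 50 bp from the summit. It was there in 22 of 118 upstream summits (18.6%), 130 of 1032 peaks (12.6%), 88 of 1962 middles of longer gaps (4.49%) and 30 of 1564 middles of short gaps (1.92%). The word GCTTGC was in 4 of the 29 (13.8%), before R148.3, fbxl-2, ddp-1 and cacn-1, and in 23 of 118 (19.5%), 67 of 1032 (6.49%), 43 of 1962 (2.19%) and 16 of 1564 (1.02%). These words are rich in G and C, as are the windows, and the shares are descriptions of letters.

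The other end of the gaps was read for the mark of a splice acceptor. Of 1366 gaps of 50 to 150 bp, 723 ended in AG at the start of the downstream gene (52.9%), against 507 of 1962 longer gaps (25.8%), 881 of 2613 first genes (33.7%) and 13 of 29 bound gaps (44.8%). TTTCAG was in the last 50 bp of 331 of the 1366 (24.2%), 291 of the 1962 (14.8%), 552 of the 2613 (21.1%) and 11 of the 29 (37.9%). So the bound gaps included many whose downstream gene starts at acceptor letters.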

How the data were processed

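The authors deposited peak lists of 2 biological replicates in ce11, per the labels: ranked and IDR-thresholded lists per replicate and for the series. Each peak has a signal value given by the authors' peak caller, not normalized between lists, and a summit offset; the series' ranked list also has the −log10 of the global IDR as deposited. The aligner, the caller and their versions were not given in the sources used here. The depth is unknown, as no file used states read numbers, and intervals cover counting error only.

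Gene models were those of Ensembl release 115 (WBcel235). Gaps were bases between adjacent protein-coding genes outside every such gene, and genes nested in others were ignored. A region was bound if a summit of the conservative list lay in it; the median peak was 296 bp wide and its summit is its centre. Densities were compared with exact binomial tests, conditional on the summed count and the bases, with 95% Clopper-Pearson intervals, and p-values were adjusted over 7 tests. Peaks and regions are not biological replicates, and p-values measure counting error in these lists. The density test was checked on simulated summits. The alternatives were the other thresholded list, each replicate's own list, the peaks above the median signal, overlap in place of the summit, other gap lengths and windows, and counting doubled peaks once, and leaving out small-RNA genes, other annotated genes or head-to-head neighbours.

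The gaps named by rule were the 20 with the highest signal, those in runs bound in both places and those of textbook operons; others, and the highest upstream summits, were named after their values were seen. Regions, gene groups and textbook operons were chosen with earlier results of these data known. Sequences were those of the highest bound gaps away from small-RNA genes and chromosome I. Python 3.11.15, pandas 2.3.3, SciPy 1.17.1 and matplotlib 3.10.9 were used.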

Additional observations from a re-analysis of the deposited data

How the results depend on the processing

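The excess in head-to-head over same-strand gaps kept its direction and its side of the threshold in 12 of 12 alternatives, and the upstream excess counted by run in 15 of 15. The count by run is set against 50%, while upstream windows made up 76.7% of the searched bases, so it reflects length as well as density. The per-base ratio of upstream windows to gaps, 1.24, was 0.913 with the other thresholded list, 0.822 without head-to-head neighbours and 0.613 with gaps longer than 150 bp, which reverses it; it was 2.78 with gaps of 1 to 300 bp, 2.11 with a 500 bp window and 1.54 with upstream bases outside genes, which passed the threshold, and 0.748 to 1.22 with 1 replicate left out. The length-matched upstream share, 63.75%, was 54.3% with the other list, 58.3% with the peaks above the median signal, 54.2% with gaps of 1 to 1000 bp, 49.1% with gaps longer than 150 bp and 50% to 63.6% with 1 replicate left out, none of these past the threshold; the 6 other alternatives kept the call (63.3% to 82.9%). The tail-to-tail ratio, 0.83, was 1.2 with the peaks above the median signal, 0.116 without small-RNA peaks, 0.128 without other annotated genes and 0.877 to 1.75 with 1 replicate left out (1.75 without replicate 2). The short-gap share of summits was 2.7% with the other list (1 of 37), 3.45% at a split at 200 bp, and stayed at 0% with 1 replicate left out (0% to 0%), losing its call without replicate 2 and at a split at 100 bp (0%), and was 6.25% with overlap. The share of summits nearer to the downstream start, 44.8%, was 71.4% with gaps of 1 to 300 bp, 55.4% with gaps of 1 to 1000 bp and 37.5% to 58.3% with 1 replicate left out. The 29 bound gaps were 7 with gaps of 1 to 300 bp, 64 with gaps of 1 to 1000 bp and 12 to 23 with 1 replicate left out. The restriction to gaps longer than 150 bp and the splits at 100 and 200 bp were chosen after seeing the data. That restriction also linked the runs anew, so its first genes and upstream windows are not those of the main setting. The cause of these changes was not tested. The peak's centre in place of the summit gave identical values. Small counts limit most comparisons. No pairing of samples between groups was possible because there is 1 group, and the McNemar test pairs regions of the same run only.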
